A study of Mus musculus with 12 samples.

Results

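The subject here is the part of the change from 10.5 to 11.5 days post coitum (dpc) that differed between male and female gonadal somatic cells. It was measured as a single contrast, the male change over the day minus the female change, on log2(intensity + 1) values of all 12 arrays of the series. A positive contrast means that males gained more, or lost less, of a transcript than females did. Of 18193 genes with a probe set of their own, 5871 had a contrast past the threshold of an adjusted p of 0.05, and 906 of these had a contrast of at least 2-fold, which is at least 1 on the log2 scale. The 906 genes were then separated by the age from which the contrast came. A gene was placed with the 11.5 dpc levels where the sex difference at 11.5 dpc made up a share of at least 0.75 of the contrast, with the 10.5 dpc levels where that share was at most 0.25, and with both ages in between, where the sex difference turned over from one direction to the other. A share above 1 also fell to the 11.5 dpc levels and a negative share to the 10.5 dpc levels. In such genes the sex difference, however small at 1 age, had the same direction at both ages.

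The cells came from mouse embryos that carried the pSF1-eGFP transgene, a green fluorescent protein driven by the promoter of Sf1 (Nr5a1), and the GFP-positive cells were collected by fluorescence-activated sorting. The 4 groups of 3 arrays were females at 10.5 dpc, males at 10.5 dpc, females at 11.5 dpc and males at 11.5 dpc, and all 4 carried the transgene. The sorted cells are those in which this promoter was active, and strain, number of pooled embryos and the origin of the replicates are not given in the sources used here. The RNA was amplified in a double round, labelled with biotin and read on Affymetrix mouse arrays. No source used here ties the 3 arrays of a group to different embryos or pools, so the p-values cover the scatter of these arrays only, and that scatter may be technical.

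At the earlier age the genital ridge looks alike in both sexes. In XY embryos the Y-linked gene Sry then acts for a short time in supporting cell precursors and raises Sox9, which with the growth factor Fgf9 turns these cells into Sertoli cells, the cells that enclose germ cells in testis cords. In XX embryos Sry is absent and Wnt4 and Rspo1 signal through beta-catenin in the same precursors, which become pregranulosa cells of the ovary. Sertoli cells in turn send Desert hedgehog to the interstitial cells around the cords.

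Over the whole array 12640 of 45037 probe sets (28.1%) passed the threshold in the contrast, and over genes the share was 32.3%, with 3359 genes higher (18.5%) and 2512 lower (13.8%). At 2-fold or more the shares were 3.18% of genes higher (578) and 1.8% lower (328), 4.98% in all. The median contrast of all genes was -0.04. Replicate arrays correlated over probe sets with r from 0.9981 to 0.9988, and the SD among 3 arrays had a median of 0.0557 to 0.0617 (log2), so small differences passed the threshold. The arrays of 10.5 dpc females stood apart in the ratio of 3' to 5' signal of the array's control probe sets, a measure of how much of the 5' part of a transcript was amplified. For beta-actin this ratio was 5.32 ± 0.117 (SD, n = 3) in 10.5 dpc females, against 9.90 ± 0.022 in 10.5 dpc males, 9.97 ± 0.124 in 11.5 dpc females and 7.59 ± 0.16 in 11.5 dpc males. For Gapdh it was 2.70 ± 0.103, 4.66 ± 0.111, 3.88 ± 0.059 and 4.19 ± 0.006 in the same order. The contrast uses all 4 groups and cannot be computed without the 10.5 dpc females, so the part of this difference in the results was not tested.

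The 906 genes divided almost evenly among the 3 origins but not by direction. From the 11.5 dpc levels came 159 genes higher and 133 lower, from the 10.5 dpc levels 238 higher and 56 lower, and from both ages 181 higher and 139 lower. Among the 159 higher genes from the 11.5 dpc levels the median sex difference was -0.02 at 10.5 dpc and 1.38 at 11.5 dpc, and the median change over the day was 1.77 in males and 0.28 in females. The 238 higher genes from the 10.5 dpc levels had a median sex difference of -1.44 at 10.5 dpc and -0.02 at 11.5 dpc, and a median change of 0.08 in males and -1.30 in females. The first set therefore consisted mainly of transcripts that rose in males, and the second mainly of transcripts that 10.5 dpc females had in excess and lost. In the first set, 144 of 159 genes also passed the threshold with a male excess of at least 2-fold at 11.5 dpc alone, which 1.85% of all genes did. In males 84 of the 159 rose by at least 2-fold without such a change in females, and 36 rose by that much in both sexes. Of all genes 5.67% rose by that much in males, whatever the females did. In the second set 109 genes fell by at least 2-fold in females without such a change in males, and 31 fell by that much in both sexes. Another 51 rose by at least 2-fold in males without such a change in females. Of all genes 7.5% fell by that much in females, whatever the males did. These shares describe values that the separation itself used. The sex difference at 10.5 dpc did not pass the threshold in 130 of the 159 genes, and that at 11.5 dpc did not pass in 175 of the 238. The genes nearest to the limits were Mettl24 with a share of 0.75 (inside the 11.5 dpc set), Trmt61b with 0.747 (outside it), Ubap1 with 0.249 (inside the 10.5 dpc set) and Fam171b with 0.252 (outside it).

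**Figure D1:**
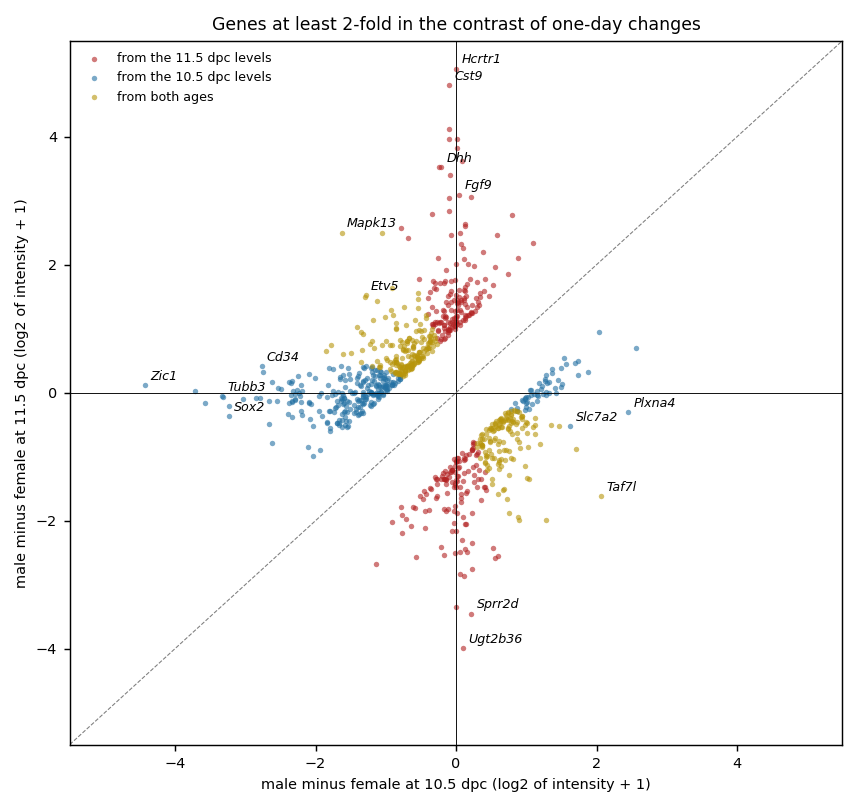
Each point is 1 of the 906 genes with a contrast past the threshold and at least 2-fold, coloured by the age the contrast came from. The axes give the male minus female difference in log2(intensity + 1) at 10.5 dpc (horizontal) and at 11.5 dpc (vertical). Genes with a sex difference beyond the drawn range, among them the sex-linked Eif2s3y, Uty and Xist, are not shown. Genes such as Hcrtr1 and Ugt2b36 lie on the vertical axis, with a sex difference at 11.5 dpc only, while Zic1 and Tubb3 lie on the left arm of the horizontal axis, with a difference at 10.5 dpc that was gone a day later.

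Promoter sequences are shown for 4 genes of the 11.5 dpc set, 2 with a male excess (Cst9 and Fgf9) and 2 with a female excess (Ugt2b36 and Tph2), because these started from like levels in both sexes and moved apart within a day. Each is the 250 bases upstream of the annotated start, 5' to 3' on the gene's own strand, from RefSeq on GRCm38.p6. Cst9 lies on the plus strand at chr2:148834897-148835146, Fgf9 on the plus strand at chr14:58072436-58072685, Ugt2b36 on the minus strand at chr5:87092556-87092805 and Tph2 on the minus strand at chr10:115185023-115185272. Capitals mark matches, on either strand, to the NR5A1 core AAGGTCA, the SOX cores AACAAT and ACAAAG and the GATA core AGATAA.
Cst9: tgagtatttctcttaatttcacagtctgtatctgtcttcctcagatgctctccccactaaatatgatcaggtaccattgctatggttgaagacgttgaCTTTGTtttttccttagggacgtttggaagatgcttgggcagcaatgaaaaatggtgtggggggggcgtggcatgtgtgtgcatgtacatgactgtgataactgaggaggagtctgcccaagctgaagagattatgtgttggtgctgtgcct
Fgf9: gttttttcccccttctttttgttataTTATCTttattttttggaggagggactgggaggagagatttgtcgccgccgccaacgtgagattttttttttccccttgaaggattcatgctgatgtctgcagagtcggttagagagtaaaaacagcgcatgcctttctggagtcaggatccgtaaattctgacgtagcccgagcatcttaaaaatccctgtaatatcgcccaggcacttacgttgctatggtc
Ugt2b36: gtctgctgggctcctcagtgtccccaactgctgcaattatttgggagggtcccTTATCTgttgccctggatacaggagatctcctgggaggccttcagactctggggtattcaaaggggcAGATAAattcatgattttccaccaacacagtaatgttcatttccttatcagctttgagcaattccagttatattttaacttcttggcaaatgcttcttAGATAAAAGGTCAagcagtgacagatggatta
Tph2: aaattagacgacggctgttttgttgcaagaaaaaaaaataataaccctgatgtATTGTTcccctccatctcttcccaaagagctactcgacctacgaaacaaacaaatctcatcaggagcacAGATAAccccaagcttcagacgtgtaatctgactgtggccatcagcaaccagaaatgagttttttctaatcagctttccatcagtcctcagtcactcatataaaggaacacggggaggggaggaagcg
The Cst9 window held 1 match to ACAAAG and the Fgf9 window 1 match to AGATAA, both on the opposite strand. In Ugt2b36 an AGATAA and the AAGGTCA follow each other without a gap, and 2 further AGATAA matches lie upstream, 1 of them on the opposite strand. The Tph2 window held 1 AACAAT match on the opposite strand and 1 AGATAA match. AAGGTCA was found in 1.65% of the 121 promoters available for higher genes of the 11.5 dpc set and in 6.03% of the 116 for lower genes, against 4.05% of all 27025 promoters. For AACAAT the shares were 3.31%, 12.9% and 9.65%, for ACAAAG 13.2%, 10.3% and 16.5%, and for AGATAA 8.26%, 10.3% and 10.3%. These shares describe letters in a 250 base window and were not tested.

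The strongest contrast of any named gene was that of Hcrtr1, a receptor for the neuropeptide orexin. Its intensities were 4.68, 4.9 and 4.79 in females and 4.74, 4.81 and 4.87 in males at 10.5 dpc. At 11.5 dpc Hcrtr1 had 6.75, 7.88 and 5.22 in females and 264, 239 and 252 in males. The first 3 groups lay near the lowest intensities of the array and the males of 11.5 dpc lay far above them. The contrast was 5.06 ± 0.14 (SE, adjusted p = 4.89e-08). Cst9, a secreted protease inhibitor of the cystatin family, had intensities of 36.5, 37.3 and 37.7 in females and 36.9, 35.2 and 31.6 in males at 10.5 dpc. A day later Cst9 stood at 76.8, 92.3 and 112 in females and 2481, 2579.7 and 2808 in males. The sexes overlapped at the start and both rose, and no female array reached the males of 11.5 dpc. Its change was 6.21 in males and 1.29 in females, with a contrast of 4.91 ± 0.16 (SE, adjusted p = 7.73e-08).

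Col9a3, a chain of the cartilage collagen IX, gave 68.8, 48 and 47.6 in females and 50.6, 45.6 and 55.7 in males at 10.5 dpc. At 11.5 dpc Col9a3 had 87.1, 98 and 96.4 in females and 1657, 1689 and 1608 in males, with a contrast of 4.22 ± 0.18 (SE, adjusted p = 2.3e-07). Ptgds, which makes prostaglandin D2, a signal known to raise Sox9 in supporting cells, gave 16.2, 16.9 and 16.2 in females and 15.2, 15.7 and 14.9 in males at 10.5 dpc. A day later Ptgds stood at 36.9, 39.3 and 51.3 in females and 730.3, 628 and 668 in males, with a contrast of 4.07 ± 0.15 (SE, adjusted p = 9.07e-08). Gdnf, a growth factor that Sertoli cells later supply to spermatogonial stem cells, gave 26.7, 27.2 and 24.6 in females and 24.3, 27.3 and 27.4 in males at 10.5 dpc. At 11.5 dpc Gdnf had 34.8, 57.9 and 58.4 in females and 745, 822 and 779 in males, with a contrast of 3.96 ± 0.23 (SE, adjusted p = 1.4e-06). At 10.5 dpc the sexes overlapped for Col9a3 and Gdnf and females were slightly above males for Ptgds, and at 11.5 dpc males were far above females for all 3. The remaining named genes of this set were Dhh, described with the hedgehog pathway, AU015836, with a contrast of 3.77 ± 0.16 and males of 11.5 dpc at 472, 548 and 482 against 30.4 to 47.9 in all other arrays, and Mmd2, a membrane protein of the progestin and adipoQ receptor family, with 3.54 ± 0.14 and males of 11.5 dpc at 148, 138 and 149 against 7.86 to 11.3. A further, brighter probe set of Mmd2 gave a contrast of 3.49, and another, at the same level in all groups, gave -0.04 (adjusted p = 0.648).

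**Figure D2:**
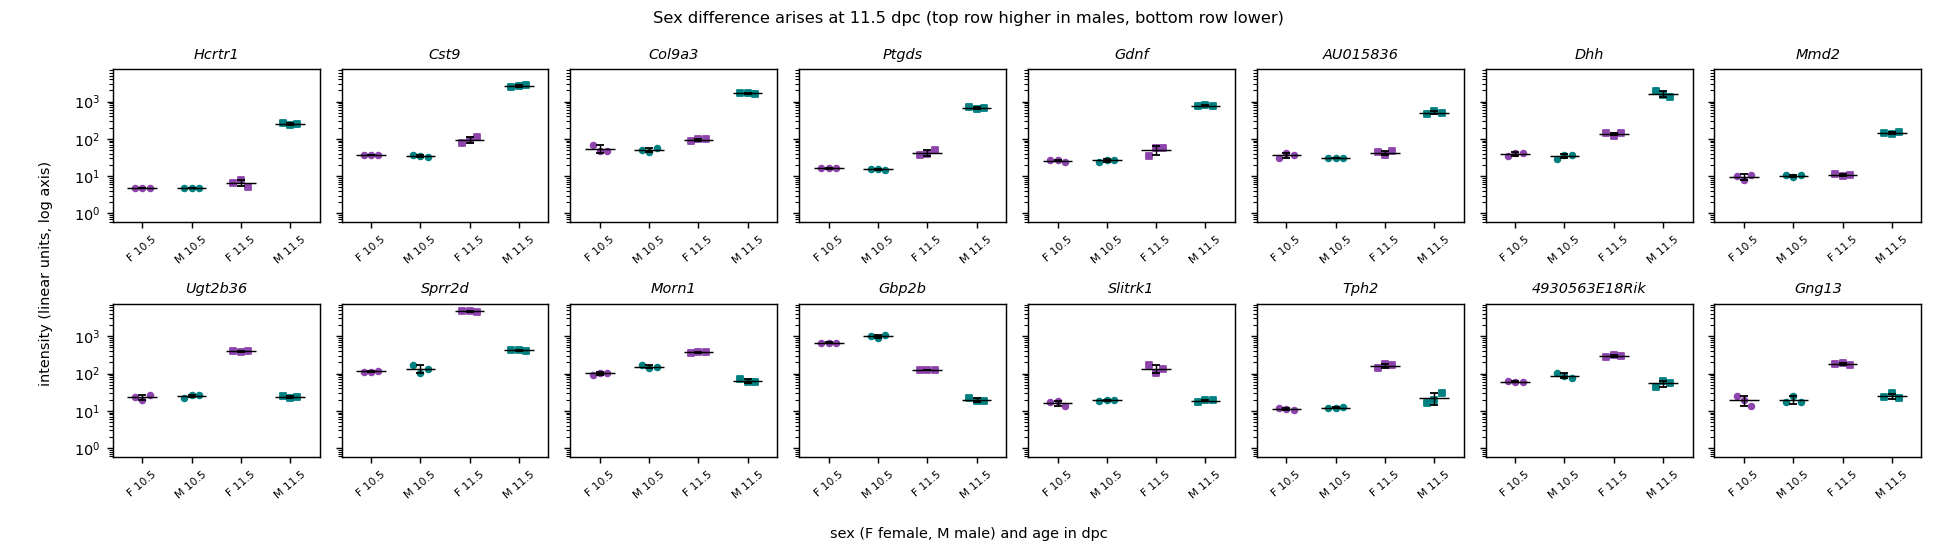
Intensity (linear units on a log axis) of the 16 named genes whose contrast came from the 11.5 dpc levels, with 1 point per array in females (purple) and males (teal) at 10.5 dpc (circles) and 11.5 dpc (squares); black lines are the mean ± SD of 3 arrays. In the upper row males of 11.5 dpc stand above all other arrays, and in the lower row females of 11.5 dpc stand above the males of that age.

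Of all genes 18.5% had a higher and 13.8% a lower contrast, the shares to set beside the counts of each list below. Of 26 measured genes of testis determination and Sertoli cells, 12 had a higher contrast and 5 a lower one, and 9 of the 12 were at least 2-fold, with a median of 0.35 against -0.04 for all genes. Beside Cst9, Col9a3 and Ptgds these were Dhh, Gstm6, Aard, Fgf9, Tesc and Sox9. Gstm6, a glutathione transferase, was near the lowest intensities at 10.5 dpc and reached 250.4, 277 and 261 in males and 26.4, 28.8 and 17.8 in females, a contrast of 3.5 ± 0.20. Aard, an alanine and arginine rich protein of the early testis, gave 189 to 244 in females and 105 to 146 in males at 10.5 dpc, and 588 to 746 in females and 3819 to 4210.3 in males at 11.5 dpc, a contrast of 3.35 ± 0.20. Tesc, the calcium-binding protein tescalcin, rose in both sexes, by 6.84 in males and 4.0 in females. All 3 had a male excess at 11.5 dpc with no overlap between the sexes, and the probe sets of Gstm6 and Tesc are of a kind that can read related transcripts. The 5 lower genes were Kctd14 (-0.96), the activin subunit gene Inhbb (-0.59), Dmrt1 (-0.58), a transcription factor that later maintains Sertoli cell identity, Map3k4 (-0.48), a kinase upstream of Sry, and Nr0b1 (-0.36), the nuclear receptor DAX1. Kctd14 rose in both sexes, by 1.16 in males and 2.12 in females, and Map3k4 was higher in males at both ages, by 1.38 and 0.90. For both, a dimmer probe set did not pass (-0.17 for Kctd14 and -0.05 for Map3k4).

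Sox9, the transcription factor that sets the Sertoli fate, was a turn-over gene rather than a gene of the 11.5 dpc set. Its intensities were 301, 328 and 297 in females and 180.2, 198 and 136 in males at 10.5 dpc. A day later Sox9 stood at 314, 263 and 298 in females and 397, 438 and 388 in males. Males lay below females at 10.5 dpc and above them at 11.5 dpc, with no overlap at either age, and the female level did not pass the threshold for a change of 2-fold. The contrast was 1.35 ± 0.18 (SE, adjusted p = 0.000242), of which the sex difference at 10.5 dpc was -0.86 and that at 11.5 dpc 0.48. The 2 other probe sets of Sox9 gave contrasts of 0.40 (adjusted p = 0.0233) and 0.49 (adjusted p = 0.345), and the first of these had a sex difference of 0.27 at 10.5 dpc, so the male deficit at 10.5 dpc was not seen there. Sry, Amh and Sox8 stayed near the lowest intensities in every group. The Sry probe set read 6.61 to 9.4 in females, which lack the gene, and 6.29 to 7.11 in males, so this probe set gave no sign of Sry at either age.

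Genes with a lower contrast from the 11.5 dpc levels rose mainly in females. Of the 133, 59 rose by at least 2-fold in females without such a change in males, and 25 rose by that much in both sexes. A further 15 fell by that much in males without such a change in females. Of all genes 5.66% rose by that much in females and 5.19% fell by that much in males, whatever the other sex did. A female excess of at least 2-fold at 11.5 dpc alone was passed by 120 of the 133, against 1.68% of all genes. These counts again describe values that the separation itself used. At 10.5 dpc the sex difference did not pass the threshold in 94 of the 133. The first was Ugt2b36, a liver-type enzyme that couples glucuronic acid to steroids and drugs. It gave 23.3, 20.1 and 26.9 in females and 22.6, 25.8 and 26.7 in males at 10.5 dpc. At 11.5 dpc Ugt2b36 had 403, 369 and 399 in females and 24.9, 21.8 and 24 in males. The females of 11.5 dpc stood alone, and the contrast was -4.09 ± 0.14 (SE, adjusted p = 9.07e-08). Sprr2d, a small proline-rich protein known from cornified epithelia, gave 113, 109 and 119 in females and 165, 105 and 132 in males at 10.5 dpc. A day later Sprr2d stood at 4716, 4692 and 4429 in females and 434, 419 and 405 in males. It rose in both sexes, by 5.33 in females and 1.66 in males, with a contrast of -3.67 ± 0.18 (SE, adjusted p = 4.24e-07).

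Tph2, the enzyme that starts serotonin synthesis in neurons, gave 12, 10.9 and 10.6 in females and 12.2, 11.6 and 12.6 in males at 10.5 dpc. At 11.5 dpc Tph2 had 137, 175 and 173 in females and 16.4, 19.2 and 30.4 in males, a contrast of -2.97 ± 0.26 (SE, adjusted p = 1.63e-05). Slitrk1, a neuronal membrane protein, gave 17.2, 17.8 and 13.4 in females and 18, 19.1 and 20 in males at 10.5 dpc. A day later Slitrk1 stood at 169, 103 and 133 in females and 17.7, 18.9 and 19.7 in males, a contrast of -2.98 ± 0.22 (SE, adjusted p = 6.04e-06). Gng13, a gamma subunit of heterotrimeric G proteins, gave 25.6, 19.6 and 13.2 in females and 17.7, 25 and 17.1 in males at 10.5 dpc. At 11.5 dpc Gng13 had 182, 196 and 165 in females and 23.4, 29.2 and 21.5 in males, a contrast of -2.89 ± 0.31 (SE, adjusted p = 6.76e-05). In each of the 3, the females of 11.5 dpc were several times above every other array, and the males did not pass the 2-fold threshold over the day. The transcript 4930563E18Rik showed the same order, with a contrast of -2.95 ± 0.18, females of 11.5 dpc at 279 to 314 and males at 44.1 to 62.5.

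The other 2 named genes of the lower set did not rise in females alone. Morn1, a MORN repeat protein, gave 92.1, 105 and 104 in females and 166, 140.5 and 148 in males at 10.5 dpc. A day later Morn1 stood at 361, 371 and 386 in females and 71.1, 60.3 and 58.3 in males. It rose in females by 1.89 and fell in males (change -1.25), and the contrast was -3.14 ± 0.12 (SE, adjusted p = 1.25e-07). Gbp2b, an interferon-induced GTPase, gave 659, 675 and 675 in females and 1003, 894 and 1056 in males at 10.5 dpc. At 11.5 dpc Gbp2b had 124, 123 and 125 in females and 22.7, 18.5 and 18.8 in males. It fell in both sexes and fell further in males, so that a male excess became a female excess, with a contrast of -3.13 ± 0.11 (SE, adjusted p = 9.07e-08).

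Of 25 measured genes of the ovary and pregranulosa cells, 15 had a lower contrast and 6 a higher one, with a median of -0.5. Wnt4, the ligand that promotes ovary formation, gave 650.3, 608 and 589 in females and 1061, 1054 and 993 in males at 10.5 dpc. A day later Wnt4 stood at 5079, 5049 and 4970.4 in females and 2502, 2744 and 2771 in males. It was higher in males at 10.5 dpc, rose in both sexes and ended higher in females, without overlap at either age. The contrast was -1.66 ± 0.07 (SE, adjusted p = 2.12e-07), and a further probe set gave -1.34. Rspo1, the R-spondin that potentiates Wnt4, gave 544, 547 and 582 in females and 487, 450.3 and 448 in males at 10.5 dpc. At 11.5 dpc Rspo1 had 843, 940.3 and 905 in females and 333, 306 and 355 in males. Here females were slightly above males at 10.5 dpc and far above them at 11.5 dpc, with a contrast of -1.16 ± 0.089 (SE, adjusted p = 7.01e-06). The other members at least 2-fold lower were Sprr2d, Gng13, Nkd1 (-1.21), a feedback inhibitor of Wnt signalling, Lhx9 (-1.15), a homeobox gene needed for gonad formation, and Zfp277 (-1.14). Nkd1 rose in both sexes, by 1.96 in males and 3.17 in females, and its 3 further, dim probe sets did not pass the threshold. Lhx9 fell in males (from the range 7573 to 7628 to the range 2687 to 2813) and by less than 2-fold in females (from the range 6579 to 6764 to the range 5286 to 5487). The size of the female fall depended on the probe set: a further bright one gave means of 7789.5 and 2136 in females and 8594 and 1117 in males at the 2 ages, a fall of over 2-fold in both sexes with a contrast of -1.08. Bmp2 (-0.71), Fst, the activin antagonist follistatin (-0.63, with -2.13 at a further probe set), and Runx1 (-0.50) were lower by less than 2-fold. Irx3 (-0.29, adjusted p = 0.307) was already higher in females at 10.5 dpc, with a male minus female difference of -1.9, and did not pass. The 6 higher genes were Lgr5, Bmper, Irx5, Rspo3, Ctnnb1 and Foxp1, of which Foxp1 (0.18) had 3 dimmer probe sets past the threshold in the opposite direction (-0.29, -0.38 and -0.59). Lgr5, a receptor for R-spondins that marks pregranulosa cells later in the fetal ovary, gave 15.1, 15.3 and 15.3 in females and 14, 15.3 and 13.4 in males at 10.5 dpc. A day later Lgr5 stood at 30.5, 20.5 and 29.5 in females and 185, 217 and 185 in males. All other arrays were below the males of 11.5 dpc, and the contrast was 2.93 ± 0.18 (SE, adjusted p = 2.06e-06). Foxl2, the transcription factor of granulosa cells, was at 8.28 to 11.4 in all arrays, close to the lowest intensities, although its contrast of -0.38 passed.

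Of 19 measured genes of the FGF pathway, 8 had a higher contrast by limma and none a lower one (1 at an unadjusted p of 0.05), with a median of 0.37. The ligand Fgf9 gave 123, 127 and 109.7 in females and 123, 129.8 and 119 in males at 10.5 dpc. At 11.5 dpc Fgf9 had 173, 197 and 206 in females and 1695, 1638 and 1602 in males. The sexes overlapped at 10.5 dpc, and the males of 11.5 dpc stood above all other arrays, with a contrast of 3.05 ± 0.10 (SE, adjusted p = 7.73e-08). The ETS factor gene Etv5, a target of FGF signalling, gave 136, 143 and 152 in females and 62.2, 54 and 59 in males at 10.5 dpc. A day later Etv5 stood at 163, 186 and 159 in females and 459, 530.2 and 476 in males. Males were below females at 10.5 dpc and above them at 11.5 dpc, and the contrast was 2.81 ± 0.11 (SE, adjusted p = 1.44e-07). Dusp6, a phosphatase that dampens the ERK kinases, gave 2118, 1739 and 1859 in females and 1178, 1209 and 1298 in males at 10.5 dpc. At 11.5 dpc Dusp6 had 1127, 1208 and 1127 in females and 1966, 2046 and 2093 in males. It crossed over in the same way, by a gain in males of 0.73 and a change of -0.72 in females, with a contrast of 1.45 ± 0.097 (SE, adjusted p = 3.27e-06). For the related phosphatase Dusp4 (1.2 ± 0.11), the antagonist Spry2 (0.63 ± 0.076) and Il17rd (0.60 ± 0.098) the contrast came from the 10.5 dpc levels, where males were lower. Etv4 (0.57 ± 0.11) and Fgfr4 (0.53 ± 0.15) came from the 11.5 dpc levels. Fgfr2, the receptor through which Fgf9 acts on supporting cells, is counted among the genes that did not pass, from a dim probe set with -0.44 (adjusted p = 0.0961). A much brighter one of a kind that can read related transcripts gave a lower contrast of -1.06 (adjusted p = 4.24e-05), with means of 277 and 685 in females and 366 and 437 in males at the 2 ages. Spry4, which rose in both sexes, had 0.53 (adjusted p = 0.113).

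Of 17 measured genes of the hedgehog pathway, 4 had a higher and 4 a lower contrast (18.5% and 13.8% of all genes), with a median of 0.02. The ligand Dhh, made by Sertoli cells, gave 34.9, 42.6 and 41.9 in females and 29.3, 36.8 and 37.1 in males at 10.5 dpc. A day later Dhh stood at 142, 123 and 142 in females and 1906, 1506 and 1332 in males. It rose in both sexes, by 5.47 in males and 1.75 in females, with a contrast of 3.73 ± 0.20 (SE, adjusted p = 7.45e-07). The receptor Ptch1, itself a target of the pathway, gave 1205 to 1409.9 in females and 1521 to 1582 in males at 10.5 dpc, and 1471 to 1547 in females and 2884 to 3506 in males at 11.5 dpc, a contrast of 0.83 ± 0.10 (SE, adjusted p = 0.000183). Gli1, a transcription factor that the pathway switches on, gave 20.7 to 31.8 in females and 16.7 to 26.2 in males at 10.5 dpc, and 32.6 to 41.4 in females and 70.5 to 101 in males at 11.5 dpc, a contrast of 1.39 ± 0.29 (SE, adjusted p = 0.00481). Both were highest in males of 11.5 dpc without overlap with females of that age. Gli2, Gli3 and Smo, which carry the signal without being its main targets, did not pass the threshold (-0.14, 0.11 and -0.06), but a brighter probe set of Smo, of a kind that can read related transcripts, gave -0.40 (adjusted p = 0.000153). The 4 lower genes were the ligand-binding co-receptors Boc (-0.73), Gas1 (-0.67) and Cdon (-0.62) and the inhibitor Sufu (-0.40). The remaining higher gene was Shh (2.22 ± 0.55 (SE, adjusted p = 0.0123)). Its contrast came from the 10.5 dpc levels, 201 to 233 in females and 35 to 55.9 in males, and it was at 5.76 to 19.9 a day later in both sexes.

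**Figure D3:**
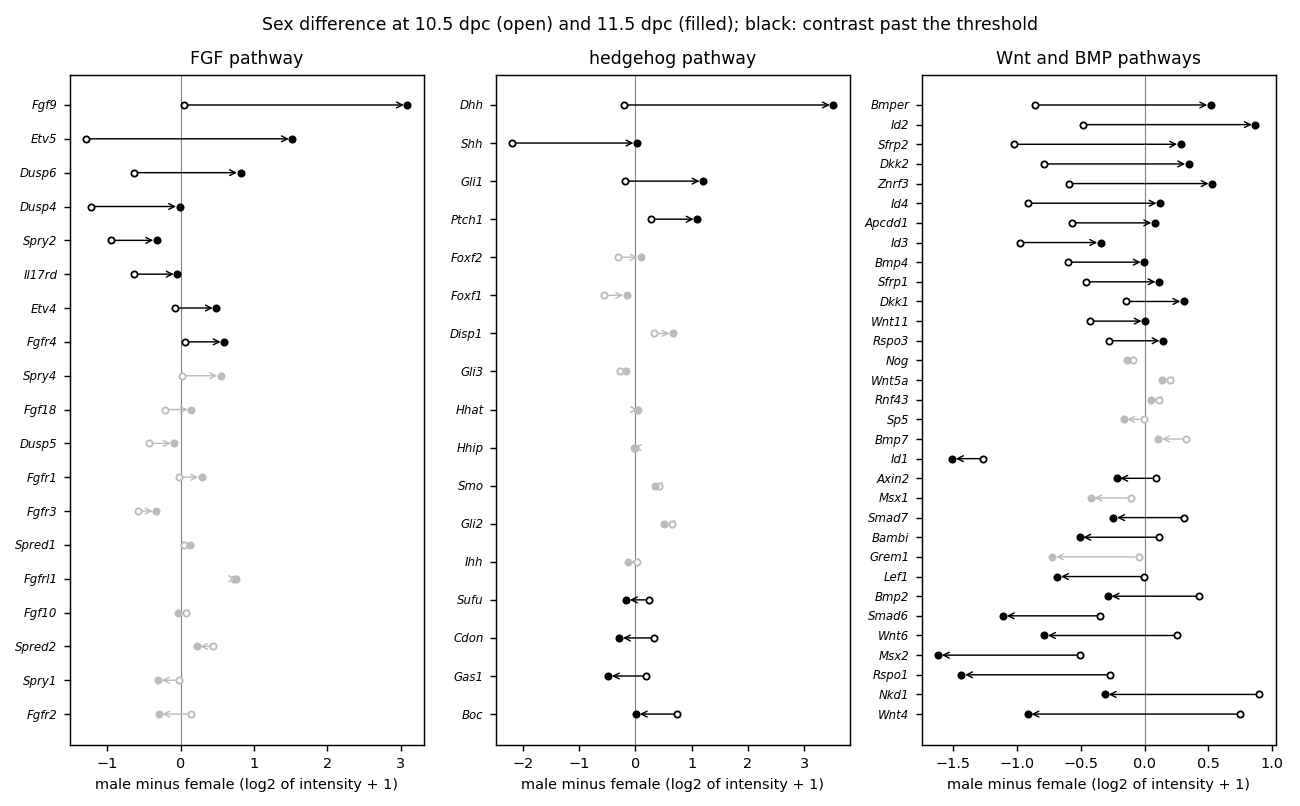
Each arrow runs from the male minus female difference (log2 of intensity + 1) at 10.5 dpc (open point) to that at 11.5 dpc (filled point) for 1 gene of the FGF, hedgehog or Wnt and BMP list, ordered by contrast; black arrows passed the threshold in the contrast and grey ones did not. Fgf9 and Dhh start near 0 and end 3.09 and 3.52 above it, and Wnt4 and Rspo1 end below 0.

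Of 32 measured genes of the Wnt and BMP pathways, 13 had a higher contrast and 12 a lower one, with a median of -0.11. The lower genes were led by Wnt4, Nkd1 and Rspo1, followed by Msx2 (-1.11), a target of BMP signalling, Wnt6 (-1.04), the BMP inhibitors Smad6 (-0.76), Bambi (-0.62) and Smad7 (-0.55), the ligand Bmp2, and the beta-catenin partner Lef1 (-0.68). Axin2 (-0.31) and Id1 (-0.24) also passed. The higher genes included the BMP modulator Bmper (1.38 ± 0.064), the secreted Wnt antagonists Sfrp2 (1.31 ± 0.14), Dkk2 (1.13), Sfrp1 (0.57) and Dkk1 (0.45), and Znrf3 (1.12 ± 0.13), a ligase that removes Wnt receptors. For Sfrp1, 3 further probe sets gave -0.40, -0.19 and -0.12 and did not pass, while another, dimmer one gave 1.25 and passed. Bmper gave 285 to 309.8 in females and 157 to 168 in males at 10.5 dpc, and 306 to 320.4 in females and 429 to 469 in males at 11.5 dpc, so the sex difference turned over. Znrf3 gave 538 to 593 in females and 347 to 392 in males at 10.5 dpc, and 187 to 237 in females and 289 to 332 in males at 11.5 dpc. It fell in females by at least 2-fold and not in males. Id2 (1.35), Id3 (0.63) and Id4 (1.04), inhibitors of differentiation that BMP signals raise, were higher, against the direction of Id1. Their probe sets disagreed: a further one of Id2 gave 0.04 and one of Id4 0.00, neither past the threshold, while others gave 0.76 and 0.46 and passed.

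Of 22 measured genes of the activin, inhibin and TGF-beta family, 5 were higher and 7 lower (18.5% and 13.8% of all genes), with a median of -0.03. The largest was Tdgf1 (1.5 ± 0.41), the Nodal co-receptor Cripto, and the next was the activin-binding Fstl3 (-0.68 ± 0.14), followed by Amhr2 (-0.67 ± 0.054), the receptor for the hormone AMH. Of 16 genes of retinoic acid metabolism and response, 7 were higher and 3 lower, with a median of 0.02. Aldh1a1, which makes retinoic acid, gave 2356 to 2474 in females and 5073 to 5268 in males at 10.5 dpc, and 1737 to 2025 in females and 9399.9 to 9506 in males at 11.5 dpc. Males were higher at both ages and the gap widened, with a contrast of 1.25 ± 0.07 (SE, adjusted p = 1.12e-06). Crabp1, a carrier of retinoic acid, rose in both sexes from a lower male level at 10.5 dpc, 169.5 to 191 against 607 to 622, with a contrast of 2.12 ± 0.059 (SE, adjusted p = 4.89e-08). Cyp26b1, which degrades retinoic acid and shields germ cells of the testis from it, had 0.48 ± 0.068 (SE, adjusted p = 0.000416), and Rdh10, which makes retinaldehyde, had 1.07 ± 0.11 (SE, adjusted p = 3.96e-05).

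Of 26 genes of the extracellular matrix and basement membrane, 10 were higher and 5 lower, with a median of 0.15. Beside Col9a3 the largest were Col18a1 (1.89 ± 0.10), a collagen of basement membranes, Tnc (1.71 ± 0.1), the glycoprotein tenascin C, Ogn (1.35 ± 0.14), a small leucine-rich proteoglycan, and Sparc (1.08 ± 0.067), a collagen-binding protein. Col18a1 gave 493 to 562 in females and 762 to 830 in males at 10.5 dpc, and 957 to 1133 in females and 5424 to 5994 in males at 11.5 dpc, and a further probe set gave 2.33. Sparc gave 9040.5 to 9404 in females and 8126 to 8906 in males at 10.5 dpc, and 7320.1 to 7762 in females and 13975 to 15437 in males at 11.5 dpc. A dim further probe set of Sparc gave -0.58 and a bright one 0.86. Tnc fell in females, from the range 235 to 294 to the range 63.7 to 67.7, and did not pass the 2-fold threshold in males. A further, dimmer probe set of Tnc gave 0.30 (adjusted p = 0.51). The basement membrane chains Col4a1, Col4a2, Lamb1, Lamb2 and Lama5 did not pass the threshold in the contrast, with values from -0.03 to 0.13, although further probe sets of Lamb1 gave -0.15 and, near the dim end, 0.82, both past it. Lower genes were Col5a1 (-0.95), Nid2 (-0.74), Lamc1 (-0.70), Lama1 (-0.65) and Hspg2 (-0.27), and in the first 4 of these males were ahead at 10.5 dpc. A dimmer probe set of Col5a1 gave -0.14 and did not pass. Among the 10 higher genes, Col1a2 (0.33) and Col3a1 (0.30) each had a brighter probe set past the threshold in the opposite direction (-0.41 and -0.36).

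Genes of which the sex difference turned over were led by Mapk13, the stress kinase p38 delta. It gave 108, 114 and 94.6 in females and 39.5, 17.6 and 52.6 in males at 10.5 dpc. At 11.5 dpc Mapk13 had 343, 412 and 416 in females and 2235, 2039.7 and 2337 in males. Males were below all females at 10.5 dpc and above them at 11.5 dpc, with a contrast of 4.13 ± 0.43 (SE, adjusted p = 5.34e-05). Gatm, the first enzyme of creatine synthesis, gave 33.2, 41.8 and 35.3 in females and 16.1, 17 and 18.2 in males at 10.5 dpc. A day later Gatm stood at 122, 124 and 115 in females and 649.7, 762 and 645 in males. It turned over in the same way, with a contrast of 3.55 ± 0.13 (SE, adjusted p = 9.07e-08).

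In the other direction, Taf7l, a TFIID subunit known from male germ cells, gave 39.8, 19.3 and 41.3 in females and 134, 142 and 133 in males at 10.5 dpc. At 11.5 dpc Taf7l had 393, 369 and 401 in females and 119, 122 and 136 in males. Males held their level while females rose past them, with a contrast of -3.69 ± 0.32 (SE, adjusted p = 1.55e-05). A330076H08Rik fell in males, from the range 241 to 273 to the range 21 to 28.8, and stayed at 96.8 to 112 in females, with a contrast of -3.27 ± 0.14 (SE, adjusted p = 2.38e-07). Klhl5, a kelch-like protein, gave 53.6, 47.4 and 70 in females and 95.7, 124 and 99.4 in males at 10.5 dpc. A day later Klhl5 stood at 132, 158 and 109 in females and 37.7, 29.3 and 30.3 in males. It rose in females and fell in males, with a contrast of -2.9 ± 0.25 (SE, adjusted p = 1.56e-05). A brighter probe set of Klhl5 went down in both sexes, with means of 1269.9 and 1019.8 in females and 1859.6 and 664 in males at the 2 ages and a contrast of -1.17.

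The higher genes from the 10.5 dpc levels were led by genes of neurons and neural crest. Zic1, a zinc-finger factor of the neural tube, gave 630.4, 549 and 615 in females and 48.8, 31.9 and 12.2 in males at 10.5 dpc. At 11.5 dpc Zic1 had 4.53, 7.47 and 5.73 in females and 8.35, 5.11 and 6 in males. Females of 10.5 dpc stood alone, and 10.5 dpc males differed among themselves. The contrast was 4.54 ± 0.56 (SE, adjusted p = 0.000169), and a further probe set gave 4.30. Tubb3, the neuronal beta-tubulin, gave 826, 906 and 905 in females and 77.7, 75.9 and 108 in males at 10.5 dpc. A day later Tubb3 stood at 44.5, 38.4 and 39.4 in females and 37, 40.6 and 39.9 in males, a contrast of 3.28 ± 0.17 (SE, adjusted p = 5.81e-07). Hmx1, a homeobox gene of sensory ganglia, gave 199, 105 and 210.3 in females and 10.9, 12.5 and 11.4 in males at 10.5 dpc. At 11.5 dpc Hmx1 had 4.54, 4.75 and 4.72 in females and 4.75, 5.52 and 4.18 in males, a contrast of 3.74 ± 0.30 (SE, adjusted p = 1.06e-05). Stmn2, a microtubule regulator of growing axons, gave 375, 406 and 303 in females and 48.4, 49.3 and 60.2 in males at 10.5 dpc. A day later Stmn2 stood at 21.2, 35.7 and 26.6 in females and 32, 37.2 and 33.6 in males, a contrast of 3.07 ± 0.25 (SE, adjusted p = 9.96e-06). At 10.5 dpc Tubb3, Hmx1 and Stmn2 each had a female excess without overlap, and at 11.5 dpc the sexes overlapped. The unnamed transcript D930028M14Rik behaved alike, with 247 to 290.2 in females and 18.6 to 26.7 in males at 10.5 dpc and a contrast of 3.42 ± 0.17.

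Of 19 measured neuron and neural crest markers 13 had a higher contrast by limma and none a lower one (0 also at an unadjusted p of 0.05), with a median of 1.93; 3 of the 19 had all group means under 10. Of the 13, 12 came from the 10.5 dpc levels and Elavl4 from both ages. The summed intensity of the list was 17543 to 17774 in females and 4064 to 4185 in males at 10.5 dpc, and 1628 to 1664 and 1392 to 1437 at 11.5 dpc. In bulk samples, fewer cells of a type and less RNA per cell cannot be told apart. Of the 19, 15 had a female excess at 10.5 dpc (22% of all genes), and over the day 16 fell in females (26.4% of all genes) and 13 in males (29.3%). Neurod1 changed by -7.51 in females and -5.33 in males. The neural crest marker Sox10 (0.34, adjusted p = 0.303) and Phox2a (-0.03, adjusted p = 0.769) did not pass.

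**Figure D4:**
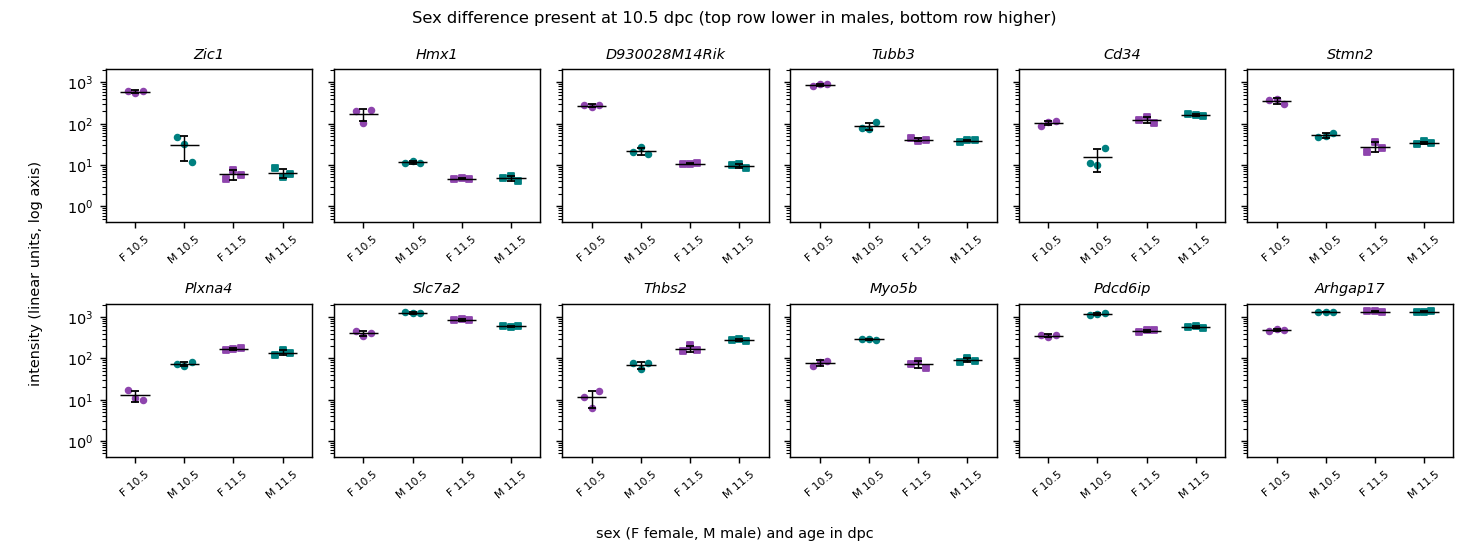
Intensity (linear units on a log axis) of the 12 named genes whose contrast came from the 10.5 dpc levels, with 1 point per array in females (purple) and males (teal) at 10.5 dpc (circles) and 11.5 dpc (squares); black lines are the mean ± SD of 3 arrays. Females and males are apart at 10.5 dpc, and at 11.5 dpc the gap is small or gone.

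Germ cell and pluripotency genes had a female excess at 10.5 dpc in 13 of 20 cases, against 22% of all genes. Over the day 10 of the 20 fell in females (26.4% of all genes), while in males 5 fell (29.3% of all genes) and 5 rose (22.5%). The median change was -0.76 in females and -0.09 in males. Of the 20 genes, 11 were higher by limma and none lower (1 at an unadjusted p of 0.05), with a median of 0.81, and 10 of the 11 came from the 10.5 dpc levels. Pou5f1 (Oct4), the pluripotency factor of primordial germ cells, gave 247, 193 and 225 in females and 44.1, 33.7 and 47.2 in males at 10.5 dpc. At 11.5 dpc Pou5f1 had 44.5, 47.1 and 46.1 in females and 33.8, 37.2 and 38 in males. Females of 10.5 dpc stood alone, and the contrast was 2.06 ± 0.17 (SE, adjusted p = 1.22e-05). Ddx4, the germ cell helicase also called Vasa, gave 128, 142 and 184 in females and 53.3, 41.1 and 65.1 in males at 10.5 dpc. A day later Ddx4 stood at 55, 60.1 and 44.8 in females and 79.9, 82.9 and 83.3 in males, a contrast of 2.12 ± 0.25 (SE, adjusted p = 0.000116), and Dppa5a had 1.84 ± 0.098. Dazl, an RNA-binding protein of germ cells, rose by 1.98 in each sex (adjusted p of the contrast = 0.999), while a further, dimmer probe set of Dazl gave 1.0 (adjusted p = 0.0194), with means of 43.3 and 69.4 in females and 12.1 and 39.3 in males at the 2 ages. Dppa2, Prdm1, Stk31 and Mael did not pass. For Dppa2 this rests on a probe set near the lowest intensities. A brighter one, of a kind that can read related transcripts, gave 0.81 and passed (adjusted p = 0.00573). The summed intensity was 6683 to 6906 in females and 1679 to 1704 in males at 10.5 dpc, and 3197 to 3304 and 2256 to 2331 at 11.5 dpc.

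Endothelial genes differed in that the summed male level rose to the female one. Of 17 measured, 12 were higher by limma, all at least 2-fold, and none was lower (0 also at an unadjusted p of 0.05), with a median of 1.4; 9 came from the 10.5 dpc levels and Kdr, Flt1 and Fli1 from both ages. The summed intensity was 2787 to 2935 in females and 976 to 1154 in males at 10.5 dpc, and 2543 to 2678 and 2698 to 2778 at 11.5 dpc. Cd34, a surface protein of endothelium and blood progenitors, gave 90.2, 108 and 116 in females and 10.9, 10.2 and 26.4 in males at 10.5 dpc. At 11.5 dpc Cd34 had 126, 145 and 106 in females and 177, 167 and 157 in males. Only the males of 10.5 dpc were low, and the contrast was 3.19 ± 0.41 (SE, adjusted p = 0.000207). Cldn5, a tight junction protein of vessels, gave 221, 211 and 234 in females and 41, 20.4 and 46.7 in males at 10.5 dpc. A day later Cldn5 stood at 239.8, 261 and 235 in females and 158, 186 and 179 in males, a contrast of 2.18 ± 0.33 (SE, adjusted p = 0.000697), and Erg, an endothelial transcription factor, 2.18 ± 0.27. The defining markers Pecam1 and Cdh5 were at 4.55 to 4.89 and 6.9 to 10.2 in all arrays, near the lowest intensities, and did not pass. Of 17 genes of vessel recruitment and interstitial progenitors 9 were higher and none lower (3 at an unadjusted p of 0.05), with Angpt1 (1.38 ± 0.14) and Jag1 (1.13 ± 0.069) at least 2-fold.

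Of the markers of other cells outside the gonadal lineages, some had a female excess at 10.5 dpc. A female excess at that age passed in 6 of 14 nephric, 4 of 12 erythroid, 5 of 16 macrophage and 4 of 14 muscle and somite genes, against 22% of all genes. A male excess passed in 2 nephric genes and in none of the other 3 lists, against 16.9%. The summed intensity of the nephric list was higher in males at 10.5 dpc, 11312 to 11539 against 10831 to 10966. That list includes Emx2, which is also a genital ridge factor and is described with those below. The male excess of Emx2 at 10.5 dpc was larger than the difference between the sums, so the sum gives no direction for the other nephric genes. The epithelial cadherin Cdh1 gave 304 to 329.6 in females and 68.5 to 74.9 in males at 10.5 dpc, and 126 to 143 in females and 106 to 142 in males at 11.5 dpc, a contrast of 1.93 ± 0.14 (SE, adjusted p = 4.17e-06), and Sim1, a factor of kidney duct and brain, gave 67.4 to 85.1 in females and 9.63 to 10.4 in males at 10.5 dpc, and 8.2 to 9.08 in females and 8.07 to 8.38 in males at 11.5 dpc, a contrast of 2.7 ± 0.10 (SE, adjusted p = 1.3e-07). Of 14 nephric genes 4 were higher and 2 lower (18.5% and 13.8% of all genes), with a median of -0.03. Of 12 erythroid genes 5 were higher and 1 lower, led by the embryonic globin Hbb-y (0.99 ± 0.049), and the summed intensity of the list was 38985 to 39764 in females and 16076 to 17391 in males at 10.5 dpc. Macrophage genes gave 2 higher and 1 lower of 16, skeletal muscle and somite genes 2 higher and none lower of 14 (4 and 0 at an unadjusted p of 0.05), led by Myf5 (1.52 ± 0.10). These female excesses at 10.5 dpc lay in the same 3 arrays as the lower 3' to 5' ratios, and the part of that ratio or of cell composition in them was not tested.

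Genes with a lower contrast from the 10.5 dpc levels were fewer, and the named ones had varied functions. Plxna4, a semaphorin receptor, gave 17, 11.2 and 10.1 in females and 71.8, 64.9 and 81.6 in males at 10.5 dpc. At 11.5 dpc Plxna4 had 163, 169 and 176 in females and 121, 158 and 135 in males. Males of 10.5 dpc were above females, both sexes were high a day later, and the contrast was -2.75 ± 0.24 (SE, adjusted p = 1.6e-05). A further, dimmer probe set of Plxna4 gave -0.38 (adjusted p = 0.19). Slc7a2, a transporter of cationic amino acids, gave 468, 349 and 414 in females and 1324, 1238 and 1222 in males at 10.5 dpc. A day later Slc7a2 stood at 858, 923 and 834 in females and 606, 586 and 619 in males. It rose in females and fell in males, with a contrast of -2.16 ± 0.13 (SE, adjusted p = 1.46e-06). Further probe sets of Slc7a2 gave -2.49 and -0.63 without the male fall: their male means were 188 and 184 and 98.4 and 125. Thbs2, the matrix protein thrombospondin 2, had -1.86 ± 0.38 (SE, adjusted p = 0.00428), but a further probe set gave 0.45 (adjusted p = 0.00319), the opposite direction.

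Myo5b, a motor of vesicle transport, was at 274 to 296 in males of 10.5 dpc and at 58.2 to 101 in all other arrays, with a contrast of -1.56 ± 0.21 (SE, adjusted p = 0.0003). The age of origin turned with the probe set: of 2 further ones, 1 about as bright gave -1.99 with means of 71.2 and 269.5 in females and 91.3 and 85.9 in males at the 2 ages, a contrast from the 11.5 dpc levels, and a brighter one gave -1.75 with means of 611 and 1483 in females and 1461 and 1054 in males at the 2 ages. Pdcd6ip (Alix), a membrane-sorting adaptor, was at 1129 to 1251 in males of 10.5 dpc against 325 to 602 elsewhere, with -1.45 ± 0.094 (SE, adjusted p = 2.63e-06). A further probe set of Pdcd6ip gave -0.91 and passed, and another was higher in females at 10.5 dpc, with means of 394 and 149 in females and 271 and 92.9 in males at the 2 ages and a contrast of -0.17 (adjusted p = 0.524). Arhgap17, a GTPase-activating protein, was low only in females of 10.5 dpc, 464 to 507 against 1303 to 1398, with -1.43 ± 0.056 (SE, adjusted p = 1.31e-07). Of its further probe sets, a bright one gave -1.11 and a dimmer one -0.05 (adjusted p = 0.792).

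Of 19 genital ridge factors 8 were lower and 4 higher, with a median of -0.15. Emx2, a homeobox gene of the early ridge, gave 3580 to 3782 in females and 4869 to 5000.5 in males at 10.5 dpc, and 1156 to 1182 in females and 579.7 to 641 in males at 11.5 dpc. It fell in both sexes and further in males, with a contrast of -1.34 ± 0.055 (SE, adjusted p = 1.7e-07). Gata4, which acts upstream of Sry, gave 206 to 225 in females and 415 to 449.9 in males at 10.5 dpc, and 384 to 389.6 in females and 445 to 460.5 in males at 11.5 dpc, so that females rose toward the male level and stayed below it, with -0.78 ± 0.058 (SE, adjusted p = 5.8e-06). Numb (-0.92 ± 0.066), Gata6 (-0.67 ± 0.061) and Wt1 (-0.34 ± 0.04) were lower too. Nr5a1, whose promoter drove the sorted reporter, gave 373 to 382 in females and 599 to 641 in males at 10.5 dpc, and 519 to 594 in females and 721 to 769 in males at 11.5 dpc. It was higher in males at both ages and its contrast was small, -0.28 ± 0.072 (SE, adjusted p = 0.0147). Of 12 genes of coelomic epithelium and mesothelium 6 were lower and 1 higher, led by Podxl (-1.44 ± 0.06) and Krt7 (-1.12 ± 0.16).

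Cell cycle genes had a higher contrast in 20 of 25 cases by limma and a lower one in none (1 at an unadjusted p of 0.05), with a median of 0.54. In females 24 of the 25 fell over the day (26.4% of all genes), and in males 21 fell (29.3% of all genes) and 1 rose (22.5%). The median change was -0.82 in males and -1.23 in females. Bub1, a checkpoint kinase of mitosis, gave 2890.2 to 3059 in females and 1129.9 to 1212 in males at 10.5 dpc, and 222 to 259 in females and 313 to 353 in males at 11.5 dpc, a contrast of 1.82 ± 0.092 (SE, adjusted p = 5.5e-07). Ccne1, the cyclin that starts DNA replication, gave 345 to 358 in females and 345 to 363 in males at 10.5 dpc, and 239 to 268 in females and 513 to 546 in males at 11.5 dpc, a contrast of 1.06 ± 0.063 (SE, adjusted p = 1.56e-06). Mcm5, a subunit of the replication helicase, gave 746 to 786 in females and 884 to 1009.6 in males at 10.5 dpc, and 388 to 398 in females and 919.6 to 1033 in males at 11.5 dpc, a contrast of 1.04 ± 0.08 (SE, adjusted p = 7.74e-06). At these probe sets the females of 11.5 dpc were the low group for Ccne1 and Mcm5, and the females of 10.5 dpc the high one for Bub1. Further probe sets gave smaller contrasts, 0.47 for Ccne1, 0.53 for Bub1 and 0.29 for a far brighter one of Mcm5. A dim one of Mcm5 gave -0.04 and did not pass. The further one of Bub1 had sex differences of -0.07 at 10.5 dpc and 0.46 at 11.5 dpc, so its contrast came from the 11.5 dpc levels. Mcm3 (1.12 ± 0.14) had 2 brighter further probe sets in the same direction and 2 dim ones in the opposite direction. Of 13 cell cycle inhibitors 5 were higher, among them Rb1 (0.80) and Btg2 (0.72), and 2 were lower, Cdkn1b (p27, -0.58), known as a mark of arrested pregranulosa cells, and Ccng1 (-0.48). A far brighter probe set of Ccng1 gave the opposite direction, 0.34 (adjusted p = 0.00289).

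Of 16 genes of cholesterol synthesis 9 were higher and 1 lower, with a median of 0.37. Fdps, which makes farnesyl diphosphate, gave 675 to 722 in females and 274 to 278 in males at 10.5 dpc, and 216 to 268 in females and 304 to 340.1 in males at 11.5 dpc. The females of 10.5 dpc were the only high group, with a contrast of 1.74 ± 0.10 (SE, adjusted p = 1.31e-06). Mvd (1.58 ± 0.40) was dim, and a further probe set gave 0.61. Steroidogenic and adrenal genes passed in 5 of 12 cases, 2 higher and 3 lower, none at 2-fold. Star, which brings cholesterol into mitochondria, had -0.72 ± 0.058 (SE, adjusted p = 1.04e-05), with -0.89 and -0.15 at further probe sets, the last of which did not pass. Hsd3b1 had 0.87 ± 0.18 (SE, adjusted p = 0.00506). Cyp11a1, the first enzyme of steroid synthesis, rose in both sexes and had -1.09 (adjusted p = 0.117). Of 31 Hox genes 9 were higher and 5 lower (18.5% and 13.8% of all genes), with Hoxb6 (1.44 ± 0.08) alone at 2-fold. Of 18 glycolysis and hypoxia genes 2 were higher and 4 lower, none at 2-fold. Immediate early genes, which cell dissociation can raise, had 9 of 20 higher and 3 lower, with a median of 0.21 and Egr3 (1.36 ± 0.24) and Ier2 (1.0 ± 0.052) as the largest; all 12 came from the 10.5 dpc levels or from both ages.

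**Figure D5:**
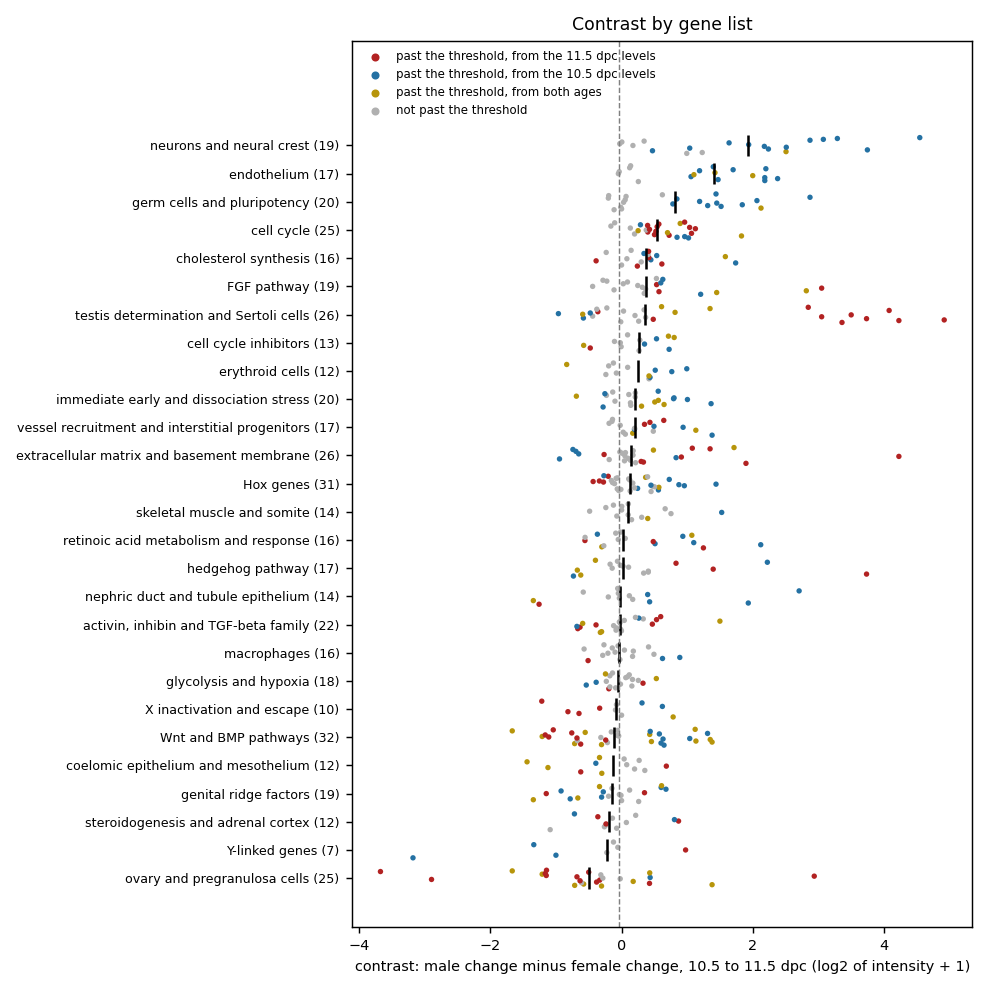
Contrast (male change minus female change, log2 of intensity + 1) of each measured gene in 27 lists, with the number of genes in parentheses; points are coloured by the age the contrast came from where it passed the threshold and are grey where it did not, black bars are list medians and the dashed line is the median of all genes. The neuronal, endothelial and germ cell lists lie to the right with points from the 10.5 dpc levels, and the points of the testis list beyond 2 come from the 11.5 dpc levels.

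Eif2s3y, Uty, Kdm5d and Xist followed the labelled sex in all 12 arrays, and all 4 still passed the contrast. Eif2s3y, a Y-linked translation factor, gave 9.41, 12.5 and 7.45 in females and 2219, 2449 and 2374 in males at 10.5 dpc. At 11.5 dpc Eif2s3y had 60.4, 68.4 and 65.2 in females and 1674, 1563 and 1581 in males. All males were far above all females, but females of 11.5 dpc were above females of 10.5 dpc, and the contrast was -3.18 ± 0.19 (SE, adjusted p = 1.67e-06). Uty and Kdm5d, both Y-linked histone demethylase genes, gave no such female rise: Uty was at 6.82 to 7.12 and 7.87 to 10.1 in females and fell in males from the range 764 to 832 to the range 366 to 384, a contrast of -1.34 ± 0.10 (SE, adjusted p = 7.71e-06). Kdm5d had a contrast of -1.0 ± 0.17 (SE, adjusted p = 0.00145). Xist, the RNA that shuts down an X chromosome of females, gave 5884, 6050.5 and 5980.1 in females and 7.85, 9.97 and 9.96 in males at 10.5 dpc. A day later Xist stood at 12354, 12443 and 11898 in females and 8.55, 7.69 and 7.79 in males. It rose in females and stayed near the lowest intensities in males, with a contrast of -1.22 ± 0.11 (SE, adjusted p = 1.82e-05). Its sex difference was -9.19 at 10.5 dpc and -10.41 at 11.5 dpc, so the female excess was present at both ages and widened. By the share alone Xist counts with the 11.5 dpc levels. Of 10 genes of X inactivation and escape 3 were higher and 4 lower.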

How the data were processed

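RNA of sorted pSF1-eGFP positive gonadal cells was read on 12 arrays, 3 for each sex and age. The authors deposited 1 linear intensity per probe set and array, computed with RMA according to the submitters' processing notes, without a version; how the linear scale was reached and which build was used are not given in the sources used here. RMA equalises the distribution between arrays, which hides a change shared by most transcripts, and draws dim probe sets together, so fold changes near the lowest intensities are understated. Array medians were 41.21 to 43.88, and 3 arrays a group limit the precision. Nothing in the files marks a batch.

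The 64 control probe sets of 45101 were left out. On log2(intensity + 1) values, limma 3.58.1 in R 4.3.3 (lmFit, contrasts, eBayes) fitted 1 mean per group to all 12 arrays, with 8 residual and 1.89 prior degrees of freedom. The p-values were adjusted by Benjamini-Hochberg over 45037 probe sets at a threshold of 0.05, and fold changes are on the log2(intensity + 1) scale. On simulated data with known changes in this contrast, 87 of 100 changes of log2 size 1 and 99 of 100 of size 2 were recovered, with 17 false calls over 45037 probe sets. The changes were set in males of 11.5 dpc at probe sets with a group mean of at least 100, so recovery at dim ones was not tested. The simulation drew normal noise around equal group means and held far fewer changes than the 28.1% of probe sets that passed here. Gene symbols came from the platform annotation (34945 with 1 symbol, 932 with several and left unnamed, 9160 without), and 34741 were updated through RefSeq identifiers of GRCm38.p6. Each gene was represented by 1 probe set, the brightest on average among those naming it alone, of a cross-hybridising kind where there was no other. Of the 906 genes, 492 had further probe sets: for 285 of these at least 1 other passed in the same direction, for 35 at least 1 in the opposite direction, and for 189 none. Genes not in a list were named by rule: past the threshold, at least 2-fold, a group mean of at least 100 and not sex-linked, the 8 largest in each direction from the 11.5 dpc levels, 6 from the 10.5 dpc levels and 3 from both. The contrast, the rule and the lists were chosen with earlier results of these data known, and list counts carry no test of their own. Promoters of 709 of the 906 genes were matched by symbol. Replicate numbers did not pair the arrays: deviations of same-numbered arrays correlated from -0.141 to 0.0818 and those of different-numbered arrays from -0.106 to 0.148.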

Additional observations from a re-analysis of the deposited data

Results flagged for a closer look

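Every gene past the threshold in the report was called for a sex difference in its change over the day, since the contrast is the test of that difference. Singled out here are the genes in which both sexes changed by at least 2-fold past the threshold and in opposite directions, and the sex-linked genes. Of the 906 genes, 5 had opposite changes. Sox17, an endothelial factor, rose in males (from the range 36.1 to 38.8 to the range 78.8 to 87.9) and fell in females (from the range 170.2 to 209 to the range 84.5 to 98.9), with a contrast of 2.2; its probe set is of a cross-hybridising kind and the other one, near the lowest intensities, gave 0.28 and did not pass. Ppp1r14a, an inhibitor of myosin phosphatase, went the same way, with 878 to 1054 in females and 191 to 203 in males at 10.5 dpc, and 409 to 466 in females and 486 to 544 in males at 11.5 dpc and a contrast of 2.51. Klhl5 (-2.9), Morn1 (-3.14) and Slc7a2 (-2.16) rose in females and fell in males at the probe set that stands for the gene. Each of these opposite changes rests on that probe set alone. A brighter one of Klhl5 went down in both sexes, 2 further ones of Slc7a2 with a lower contrast had no such male fall, and for Morn1 3 further, dimmer probe sets did not pass the threshold.

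Among the sex-linked genes Eif2s3y had a contrast of -3.18, with a change of 2.63 in females and -0.55 in males. In females, which lack the gene, the probe set read 7.45 to 12.5 at 10.5 dpc and 60.4 to 68.4 at 11.5 dpc. Uty had -1.34, with a change of 0.27 in females and -1.07 in males, and its 3 further probe sets did not pass. Xist had -1.22, with a change of 1.03 in females and -0.18 in males, and the further probe sets gave -1.0 (adjusted p = 0.111) and -1.55 (adjusted p = 0.0127).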

How the results depend on the processing

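All 34 named genes kept their direction and stayed past the threshold in the 612 values computed under alternative settings, including each of the 12 arrays left out in turn, where the largest adjusted p was 0.0128. Their size was less stable: with the mean over all probe sets of a gene, 12 of the 34 contrasts shrank by over 1.5 times on the log2 scale. Morn1 (-0.91), Thbs2 (-0.61), Pdcd6ip (-0.54) and Arhgap17 (-0.86) then lay under 2-fold, and the others were Col9a3 (2.77), Dhh (1.86), Mmd2 (2.33), Etv5 (1.27), Gng13 (-1.52), Plxna4 (-1.57), Slc7a2 (-1.22) and A330076H08Rik (-2.16). Thbs2 also moved under 2-fold (-0.99) with a pseudocount of 16. Leaving out 1 array at a time gave 11518 to 12475 probe sets past the threshold, 561 to 601 genes at least 2-fold higher and 316 to 339 lower. The same gave 152 to 168 higher and 122 to 143 lower genes from the 11.5 dpc levels, 231 to 255 and 52 to 64 from the 10.5 dpc levels, and 167 to 192 and 134 to 149 from both ages. With the replicate number as a block, 12184 probe sets passed, and 575 genes were higher and 328 lower; the numbers do not pair the arrays. Lower genes from the 10.5 dpc levels fell from 56 to 31 with a pseudocount of 16 and to 24 with the mean over all probe sets of a gene, a setting that also gave 103 higher genes from both ages in place of 181. Limits of 0.67 and 0.33 for the share gave 90 lower genes from both ages, and limits of 0.9 and 0.1 gave 292 higher ones, by construction of the classes. With each array centred on its median, 55.5% of the probe sets past the threshold were higher, against 52.1%. The germ cell list had 1 lower gene without replicate 1 of females at 11.5 dpc or of males at 10.5 dpc. Some probe sets stayed near the lowest intensities, such as those of Sry, Amh and Foxl2. Whether they can read their transcripts was not tested, so the lack of a large change there is no result about these genes.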

Other observations

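The further genes given here were chosen after their values were seen. Their contrasts came from the 11.5 dpc levels, except that of Ednrb, which came from both ages. Among matrix genes outside the list, the laminin chain gene Lama4 gave 131 to 185 in females and 125 to 172 in males at 10.5 dpc, and 307 to 409.7 in females and 1918 to 1981 in males at 11.5 dpc, a contrast of 2.52 ± 0.21 (SE, adjusted p = 1.14e-05), Col27a1 had 2.47 ± 0.14 (SE, adjusted p = 1.37e-06), and Col2a1, the main cartilage collagen and a target of Sox9, had 2.01 ± 0.16 (SE, adjusted p = 8.94e-06). Males of 11.5 dpc were above all other arrays in each of the 3. In females of 11.5 dpc, Foxl2os, the transcript opposite Foxl2, was at 50.1 to 81.9 against 8.92 to 11.3 in all other arrays, a contrast of -2.56 ± 0.21 (SE, adjusted p = 1.01e-05), while the probe set of Foxl2 itself stayed near the lowest intensities; which strand the probes read was not tested. Rec8, a cohesin of meiosis, was at 91 to 112 against 16.6 to 24.8, a contrast of -2.16 ± 0.20 (SE, adjusted p = 2.34e-05), and Cxcr4, the chemokine receptor, at 91.4 to 106 against 6.99 to 20.2, a contrast of -2.19 ± 0.13 (SE, adjusted p = 1.61e-06). Ednrb, the endothelin receptor B, crossed over, with 219 to 231 in females and 63.2 to 65.2 in males at 10.5 dpc, and 106 to 120 in females and 188 to 193 in males at 11.5 dpc and a contrast of 2.53 ± 0.062 (SE, adjusted p = 2.76e-08).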
